A study of Mus musculus with 6 samples.

Results

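Ifit1, Ifit2 and Ifit3 encode interferon-induced proteins with tetratricopeptide repeats. They were followed with every probe that the array files name for these genes, 5 probes out of 41174 and 3 genes out of 27962 gene names. Ifit1 had 1 probe, and Ifit2 and Ifit3 had 2 each. The arrays measured total RNA of the mouse line 4T1.2, mammary carcinoma cells of BALB/c background that are known to spread to bone. In the IRF7 group the cells carried the pMSCV retroviral vector with Irf7, a transcription factor of the type I interferon response, and in the base-vector group they carried the same vector without it. Both groups had been selected with puromycin, cloned from single cells and pooled again from several clones, and were grown in medium with 5% fetal calf serum and no added interferon named in the labels. Each group had 3 arrays, from 3 independent experiments according to the design text, so the p-values measure the spread between cultures of 1 pooled population per group. The comparison asks how basal expression differs between cells with enforced Irf7 and cells with the empty vector.

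Type I interferon binds the receptor chains Ifnar1 and Ifnar2, and the kinases Jak1 and Tyk2 then set off the assembly of the factor ISGF3, which includes Stat2 and Irf9. ISGF3 binds a promoter sequence called the interferon-stimulated response element (ISRE), and the Ifit genes are among its best known targets. Irf3 and Irf7 can bind related sequences. Ifit1 protein binds RNA whose cap lacks 2'-O methylation, a mark that sets many viral RNAs apart from the cell's own. Ifit1 and Ifit2 proteins can bind the translation initiation factor eIF3, and Ifit3 protein has been placed between the mitochondrial adaptor Mavs and the kinase Tbk1. The genes lie side by side on mouse chromosome 19 with the relatives Ifit1bl1, Ifit3b and Ifit1bl2.

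The 5 probes are shown because each one decides which transcript its signal belongs to. Each is 60 bases long, written 5' to 3' in lower case, and lies on the plus strand of chromosome 19 at the mm7 positions that the files give. The sixth sequence is a neighbouring probe that the files name only as NAP007796-001, which lies 47 bases before the first Ifit3 probe.
Ifit1 A_51_P327751, chr19:34350610-34350669: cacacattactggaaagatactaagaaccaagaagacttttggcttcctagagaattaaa
Ifit2 A_52_P542388, chr19:34275121-34275180: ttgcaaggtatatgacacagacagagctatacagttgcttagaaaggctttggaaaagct
Ifit2 A_51_P161021, chr19:34277058-34277117: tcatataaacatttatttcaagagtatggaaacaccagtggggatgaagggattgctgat
Ifit3 A_51_P359570, chr19:34289919-34289978: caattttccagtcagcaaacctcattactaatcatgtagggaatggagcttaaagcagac
Ifit3 A_52_P663686, chr19:34313887-34313946: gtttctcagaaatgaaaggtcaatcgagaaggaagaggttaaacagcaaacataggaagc
NAP007796-001 A_52_P653054, chr19:34289812-34289871: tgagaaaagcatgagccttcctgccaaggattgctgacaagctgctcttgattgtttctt
The 5 Ifit probes held 35 to 40% G and C. None of the 6 shared a run of 20 bases with any other probe on the array. Between 2 Ifit probes the longest shared run, on either strand, was 8 bases. These comparisons cover array probes alone, and matches of a probe to other transcripts were not analysed. The files tie the Ifit1 probe to NM_008331, both Ifit2 probes to NM_008332, Ifit3 A_51_P359570 to NM_010501 and Ifit3 A_52_P663686 to the cDNA AK077243. Where in its transcript each probe lies was not analysed here.

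Ifit3 A_52_P663686 lies 23.9 kb beyond the other Ifit3 probe, past both Ifit1bl1 probes and before the Ifit1bl2 probe. In the order of RefSeq's genes (GRCm38.p6) the gene that starts between Ifit1bl1 and Ifit1bl2 is Ifit3b, a close copy of Ifit3, and no probe carries the name Ifit3b. Which of these transcripts A_52_P663686 reads is uncertain, and its values are kept apart below from those of the other Ifit3 probe. Whether that other probe, A_51_P359570, also reads Ifit3b was not analysed.

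The 4 RefSeq promoter windows of Ifit1, Ifit2 and Ifit3 are shown because they differ in ISRE matches. Whether the matches bear on how far each gene changed was not tested. Each window runs from 250 bases before a transcription start to 50 bases after it, on the plus strand of GRCm38.p6. Ifit2 has 2 annotated starts. Capitals mark the ISRE core GAAANNGAAA, searched on both strands, which here appears as its reverse complement.
Ifit1, chr19:34640639-34640938: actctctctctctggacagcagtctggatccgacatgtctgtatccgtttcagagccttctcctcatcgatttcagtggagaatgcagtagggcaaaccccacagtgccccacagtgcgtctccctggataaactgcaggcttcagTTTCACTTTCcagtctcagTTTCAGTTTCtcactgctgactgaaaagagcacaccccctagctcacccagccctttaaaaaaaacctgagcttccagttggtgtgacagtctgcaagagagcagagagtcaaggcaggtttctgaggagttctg
Ifit3, chr19:34583279-34583578: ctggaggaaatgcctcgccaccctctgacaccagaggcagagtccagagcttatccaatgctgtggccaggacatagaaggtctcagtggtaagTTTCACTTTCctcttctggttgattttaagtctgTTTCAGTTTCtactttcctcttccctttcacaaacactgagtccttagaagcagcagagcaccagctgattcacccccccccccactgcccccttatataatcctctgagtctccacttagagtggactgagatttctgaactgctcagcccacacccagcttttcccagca
Ifit2, first start, chr19:34550444-34550743: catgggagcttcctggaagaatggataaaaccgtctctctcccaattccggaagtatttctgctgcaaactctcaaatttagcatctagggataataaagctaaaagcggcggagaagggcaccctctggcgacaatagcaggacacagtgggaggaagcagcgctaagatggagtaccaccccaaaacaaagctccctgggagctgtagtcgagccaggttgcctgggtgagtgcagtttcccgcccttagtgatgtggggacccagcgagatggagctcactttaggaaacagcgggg
Ifit2, second start, chr19:34550838-34551137: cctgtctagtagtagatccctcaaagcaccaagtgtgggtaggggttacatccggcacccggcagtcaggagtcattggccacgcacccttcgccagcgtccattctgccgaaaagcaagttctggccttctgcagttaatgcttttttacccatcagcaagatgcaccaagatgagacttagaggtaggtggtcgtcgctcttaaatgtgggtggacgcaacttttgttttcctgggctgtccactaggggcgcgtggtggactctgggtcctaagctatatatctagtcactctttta
The Ifit1 window held 2 cores, at -104 to -95 and at -85 to -76 from the start. The Ifit3 window also held 2, at -156 to -147 and at -122 to -113. The longer form GAAANNGAAACT, which contains the core, matched at both sites of Ifit1 and at 1 site of Ifit3. Neither Ifit2 window held a core. Sequence outside these windows was not searched, so a core elsewhere near a gene would be missed. The first Ifit2 window held 1 match to the interferon gamma activated site TTCNNNGAA, at -241 to -233, and the windows of Ifit1 and Ifit3 held none. Of 32851 mouse promoter windows of this length, 3.44% held the core, 0.271% the longer form and 8.3% the gamma activated site. A match is a match of letters, and neither binding nor use of a site was measured.

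**Figure D1:**
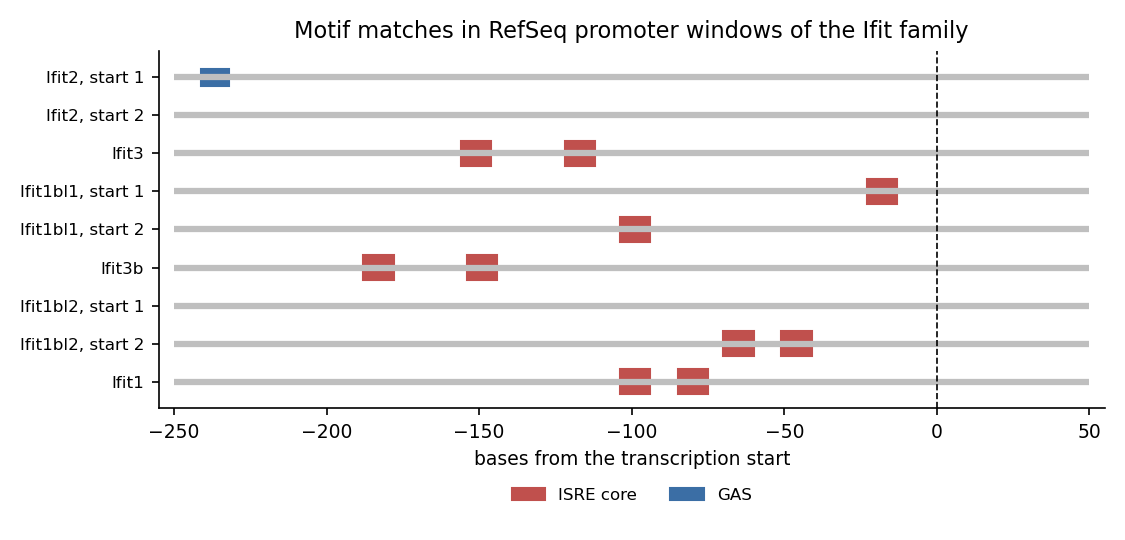
Matches to the ISRE core (red) and to the interferon gamma activated site (blue) in 9 RefSeq promoter windows of the Ifit family, with bases from the transcription start on the horizontal axis and 1 grey line for each annotated start. Ifit1, Ifit3 and Ifit3b each hold 2 cores and the windows of Ifit2 hold none.

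The relatives differed among themselves. The Ifit3b window held 2 cores, 1 of them in the longer form, and it was identical to the Ifit3 window at 258 of 260 aligned bases (99.2%). Both Ifit1bl1 windows held 1 core and no longer form. The first Ifit1bl2 window held no core. The second Ifit1bl2 window runs on the minus strand across the start of Ifit1 and so holds the same 2 sites as the Ifit1 window.

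The level of Irf7 was checked first. Whether its probe reads RNA of the vector, of the cells' own gene or of both was not analysed. Irf7 A_51_P421876 read 246, 195 and 210.5 in the base-vector arrays (processed signal, a background-subtracted intensity on the scanner's linear scale) and 4486, 4963 and 5012 in the IRF7 arrays, a log2 change of 4.28 (SE 0.0495, limma adjusted p = 4.11e-07). Changes are differences of log2 signal after each array's 75th percentile is subtracted. Over all arrays 54.3 to 59.7% of mouse spots were well above background, the flag that the scanner software sets and that is called detected below, and 23518 probes with that flag on at least 3 of 6 arrays were tested together. Of those, 13784 (58.6%) passed an adjusted p of 0.05, 7149 (30.4%) higher and 6635 (28.2%) lower in IRF7 cells. The higher share of these calls was 51.9%, and 79.4% when the arrays were not scaled, where the median change of all tested probes was 0.22 and not 0.02. With so many probes called, size tells more than the call: 701 probes (2.98%) were called and at least 2-fold higher. Slide 1, also scan 1, held the 3 IRF7 arrays and base-vector replicate 1, while slide 2 held the other base-vector arrays. A fit with slide as a block, and slide 1 alone, both take their change from base-vector replicate 1 against the IRF7 arrays, so their equal changes are 1 check.

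A marker was counted where at least 2 of a group's 3 arrays detected it. Epithelial markers were counted for 9 of 12 genes in the base-vector cells and 8 of 12 in the IRF7 cells, among them Epcam, Cdh1, Krt8 and Krt18. Krt19 and Cldn4 were detected on no array. Of the 9 tested epithelial genes 3 were called higher and 2 lower, where 30.4% and 28.2% of all probes were. Krt7 was higher by 2.62 and Epcam by 1.19 on the log2 scale. Cldn7, detected on all 3 base-vector arrays and no IRF7 array, was at least 4.69-fold lower. For markers of other cells, myeloid genes were counted for 2 of 10 and 4 of 10, with summed signals of 2685 to 3024 and 3666 to 4336. Cd68 and Cd14 were detected on all 6 arrays, with log2 changes of 0.01 (adjusted p = 0.9) and 0.38 (adjusted p = 0.000302), and Lyz2 on 2 IRF7 arrays alone. Itgam, Fcgr1, Tyrobp and Aif1 were detected on no array. Lymphocyte and plasmacytoid genes were counted for 2 of 10 and 3 of 10 (summed signals 275 to 566 and 371 to 409), without Cd79a, Ms4a1, Nkg7 or Siglech on any array. Fibroblast and endothelial genes were counted for 3 of 9 and 1 of 9 (summed signals 316 to 384 and 337 to 384), without Col1a1, Pecam1 or Vwf on any array. Cdh5 was higher by 1.05 on the log2 scale, while Dcn and Pdgfrb, detected on all 3 base-vector arrays and no IRF7 array, were at least 3.12-fold and 2.85-fold lower. The part of other cells in the results below was not tested.

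All 5 Ifit probes were well above background on every array and all 5 passed the test, each higher in the IRF7 cells. Ifit3 changed most, Ifit1 less and Ifit2 least. In each of the 5 the lowest IRF7 array lay above the highest base-vector array, as it did for 34.3% of all tested probes. Of the 5, 3 were called and at least 2-fold higher, where 2.98% of all probes were. These are bulk RNA levels, in which more cells that express a gene and more RNA per cell cannot be told apart.

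Ifit3 A_51_P359570 read 413, 368 and 398 in the base-vector arrays and 5244, 5652 and 6034 in the IRF7 arrays. The groups were far apart, and within each group the signals were close. Relative to the 75th percentile, the log2 level was -1.62 ± 0.05 (SD, n = 3) in base-vector cells and 2.02 ± 0.02 (SD, n = 3) in IRF7 cells. Ifit3 was therefore 12.5-fold higher (95% interval 11.7 to 13.3, log2 change 3.64, SE 0.037, limma adjusted p = 4.09e-07). Of all tested probes, 0.136% had a larger change. With slide as a block the log2 change was 3.67 (adjusted p = 2.96e-05).

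The unnamed neighbour NAP007796-001 gave signals of 333, 289.7 and 309 in the base-vector arrays and of 3986, 4421 and 4648 in the IRF7 arrays. Its log2 change was 3.61 (SE 0.0332, limma adjusted p = 4.09e-07), within 0.04 of the Ifit3 probe beside it (SE of the difference 0.0199, two-sided exact permutation p = 0.2).

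Ifit3 A_52_P663686, whose transcript is uncertain, was dim in base-vector cells, at signals of 47.1, 37.8 and 36.4. In the IRF7 arrays it gave 645, 744 and 798. The base-vector values lay just above the lowest signal that counted as well above background, which was 28.0 to 34.0 over the arrays. The log2 levels were -4.91 ± 0.12 (SD, n = 3) and -0.93 ± 0.07 (SD, n = 3), a 15.7-fold difference (log2 change 3.98, 95% interval 3.80 to 4.15, SE 0.07, limma adjusted p = 1.39e-06). With normexp background correction, which lifts dim signals by an offset of 50, the difference was 6.66-fold (log2 change 2.73), and the slide block gave 3.85. Its change exceeded that of A_51_P359570 by 0.33 (SE 0.0978, two-sided exact permutation p = 0.1, the smallest that 3 against 3 arrays allow), while under normexp it was the smaller of the pair (2.73 against 3.44).

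Ifit1, the cap-sensing member, read 2146, 1752 and 1938 in the base-vector arrays and 9676, 9811 and 10616 in the IRF7 arrays. The base-vector signals were already well clear of background, and the IRF7 arrays stood apart from them. The log2 levels were 0.68 ± 0.07 (SD, n = 3) and 2.85 ± 0.04 (SD, n = 3). Ifit1 was 4.50-fold higher (95% interval 4.15 to 4.88, log2 change 2.17, SE 0.0476, limma adjusted p = 2.55e-06), and 2.13 on the log2 scale with slide as a block (adjusted p = 0.000144). Larger changes were seen in 0.77% of all tested probes.

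Ifit2 changed least. Probe A_51_P161021 gave signals of 606, 514 and 566 in the base-vector arrays and of 872, 940.0 and 1039.5 in the IRF7 arrays. The groups did not overlap, but their gap was small beside those of Ifit1 and Ifit3. The log2 levels were -1.11 ± 0.06 (SD, n = 3) and -0.55 ± 0.04 (SD, n = 3), a 1.47-fold difference (95% interval 1.37 to 1.59, log2 change 0.56, SE 0.0434, limma adjusted p = 0.000169). Of all tested probes, 8.4% had a larger change.

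The other Ifit2 probe, A_52_P542388, lies 1877 bases before it. Its signals were 202, 218 and 201 in base-vector cells and 308, 329.7 and 314 in IRF7 cells. The log2 levels were -2.54 ± 0.14 (SD, n = 3) and -2.13 ± 0.08 (SD, n = 3), a 1.33-fold difference (95% interval 1.16 to 1.54, log2 change 0.42, SE 0.0824, limma adjusted p = 0.00671). With slide as a block both Ifit2 probes gave 0.55 (adjusted p = 0.00961 for A_52_P542388 and 0.004 for A_51_P161021). The changes of the 2 Ifit2 probes differed by 0.14 (SE 0.126, two-sided exact permutation p = 0.4), less than their spread between arrays could separate.

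**Figure D2:**
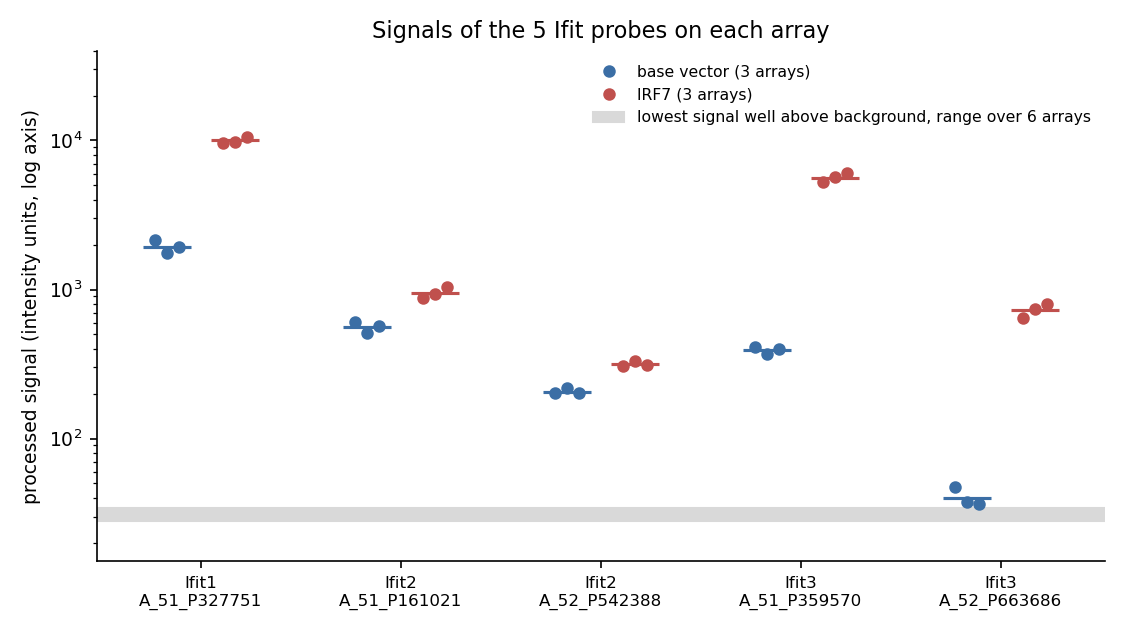
Processed signal (intensity units, log axis) of the 5 Ifit probes on each of 3 base-vector arrays (blue) and 3 IRF7 arrays (red), with horizontal bars at the group means of the log values; the grey band is the range over 6 arrays of the lowest signal well above background. The groups do not overlap in any probe, and the base-vector signals of Ifit3 A_52_P663686 lie just above the band.

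The 3 genes thus differed in the size of their change, and that difference was tested with the brightest probe of each gene. For each array the log2 ratio of the probes was taken, whose level has no meaning by itself but whose shift between groups is the difference of their changes. The ratio of Ifit3 to Ifit1 was -2.38, -2.25 and -2.28 in the base-vector arrays and -0.88, -0.80 and -0.82 in the IRF7 arrays. The change of Ifit3 was therefore larger by 1.47 (SE 0.0457), a factor of 2.78. The ratio of Ifit3 to Ifit2 was -0.55, -0.49 and -0.51 against 2.59, 2.59 and 2.54, a shift of 3.09 (SE 0.0257) or 8.49-fold. The ratio of Ifit1 to Ifit2 was 1.83, 1.77 and 1.78 against 3.47, 3.38 and 3.35, a shift of 1.61 (SE 0.0401) or 3.06-fold. In each of the 3 pairs the arrays of the groups did not overlap, and the two-sided exact permutation p was 0.1, also after adjustment over the 3 pairs. Since 0.1 is the smallest p that 3 against 3 arrays can give, the design cannot place these differences below 0.05. With Ifit3 A_52_P663686 in place of the other Ifit3 probe the shift against Ifit1 was 1.81, and with A_52_P542388 the shift of Ifit1 against Ifit2 was 1.75.

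**Figure D3:**
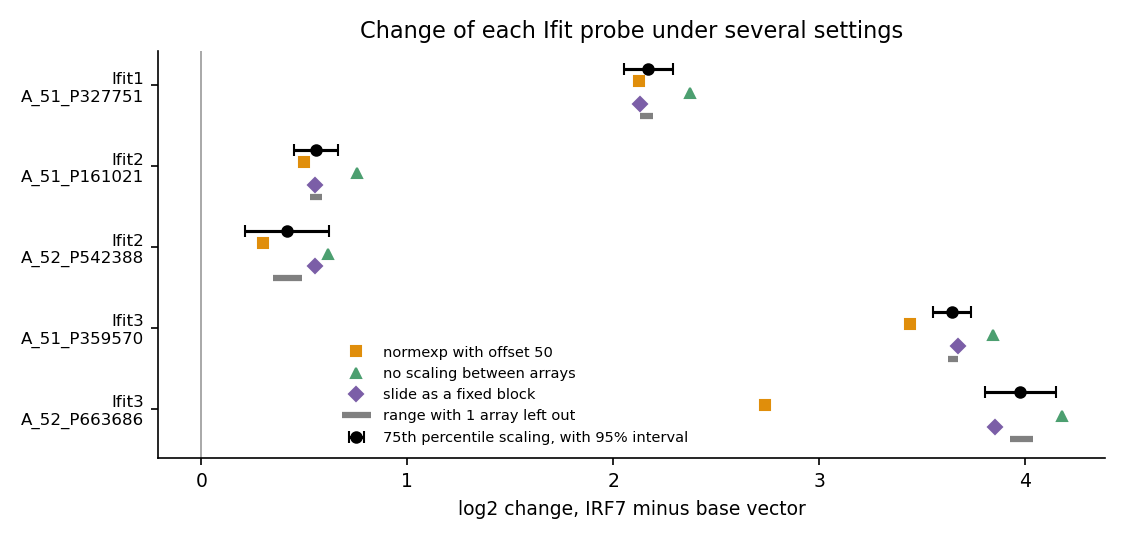
Log2 change (IRF7 minus base vector) of each Ifit probe, with the 95% interval for the 75th percentile scaling (black), normexp (orange), no scaling (green), slide as a block (purple) and the range with 1 array left out (grey). Every value is above 0, the probes of Ifit2 lie between 0.30 and 0.76, and Ifit3 A_52_P663686 moves most, to 2.73 with normexp.

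The relatives Ifit1bl1 and Ifit1bl2 could not be tested. Ifit1bl1 A_51_P500082 gave signals of 6.83, 6.58 and 7.04 in the base-vector arrays and of 20.5, 41.8 and 38.2 in the IRF7 arrays, and was well above background on none of the former and 2 of the latter. Its second probe, A_52_P294064, stayed between 6.42 and 7.66 and was above background on no array. Ifit1bl2 A_52_P289972 read 26.5, 7.85 and 15.3 in base-vector cells and 24.7, 19.9 and 18.7 in IRF7 cells, with overlapping groups, and was detected on no array.

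The steps that lie upstream of the Ifit genes were taken next. Of 7 genes of the interferon receptor and ISGF3, 3 rose, 1 fell and 3 did not pass, with a median log2 change of 0.12. The counts of calls are near the shares over all probes, 30.4% higher and 28.2% lower. By size, all 3 that rose were at least 2-fold higher, where 2.98% of all probes were called and at least 2-fold higher. Irf9 gave signals of 1375, 1189 and 1303 against 7712, 8052 and 8525, a log2 change of 2.45 (SE 0.0385), and 2.42 by its second probe. Stat2 gave 2252, 2050.3 and 2016 against 8246, 8516 and 9037, a log2 change of 1.83 (SE 0.0329). The groups were apart in both genes.

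The receptor chains gave 0.12 for Ifnar1 (limma adjusted p = 0.0876) and -0.06 for Ifnar2 (0.235), and the kinase Jak1 gave -0.01 (0.805). Without scaling Ifnar1 passed (0.32, adjusted p = 0.0367) and the values of Ifnar2 and Jak1 turned positive (0.14 and 0.19). Ifnar1 also passed with slide as a random block (0.13, adjusted p = 0.0464), and Ifnar2 passed as lower with quantile normalization (-0.10, adjusted p = 0.0369). Jak1 turned positive, without passing, with slide as a fixed block (0.03) and without base-vector replicate 3 (0.01). The kinase Tyk2 fell by 0.40 (SE 0.0585, adjusted p = 0.00198), a call that was lost without scaling (adjusted p = 0.142).

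Antiviral genes that interferon induces, taken outside the Ifit family, all rose: 27 of 27 tested genes, of 30 in the list and 28 on the array. Of the 27, 25 were at least 2-fold higher. Over all tested probes 30.4% were called higher, and 2.98% were called and at least 2-fold higher. Oas1g and Ifi44l, among the 27, were detected on no base-vector array and so entered the test through the IRF7 arrays alone. The median of the 27 genes was 6.75-fold (log2 change 2.75, range 0.55 to 7.90), or 6.04-fold with Oas1g and Ifi44l at their lower bounds. Mx1 was above background on 1 array and was not tested. Ifi44 had the smallest p of the list (log2 change 6.89, SE 0.0306), and its signals went from 187 to 209 in base-vector cells to between 24620 and 28889 in IRF7 cells. The protease Usp18, which removes Isg15 from its targets, rose by 6.19 (SE 0.0377), and Oas3, an oligoadenylate synthetase that senses double-stranded RNA, by 5.70 (SE 0.0324). Second probes read 5.06 for Ifi44, above background on 1 base-vector array, and 3.37 for Oas3, whose first probe gave 4.52 with normexp.

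Set among these 27 genes, Ifit3 stood high and Ifit2 low. The change of Ifit3 was exceeded by at least 7 of the 27, since Oas1g and Ifi44l have lower bounds alone (at least 4.90-fold and 5.35-fold). That of Ifit1 was exceeded by 20 and that of Ifit2 by 26. The 1 antiviral gene with a change smaller than that of Ifit2 was Oasl1, at 0.55. Of the 21 antiviral genes that have a promoter window, 11 held an ISRE core, among them Isg15, Rsad2, Oas1a and Eif2ak2. The share over all mouse genes with a window was 3.99%. The list was chosen from genes known to respond to interferon, so these shares describe it and do not test it.

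A list of 11 genes for interferon gamma held genes known chiefly as its responses and the receptor chains Ifngr1 and Ifngr2. Of its 8 tested genes, 4 rose and 2 fell, with a median log2 change of 0.24. The 2 that did not pass were Ifngr1 (0.12) and Ifngr2 (-0.11), which are not response genes. Over all probes 30.4% were higher and 28.2% lower, so the counts of calls by themselves say little about the list. By size, 3 of the 8 were called and at least 2-fold higher, where 2.98% of all probes were. The GTPase Gbp2 rose by 1.36 (SE 0.0405), the signalling inhibitor Socs1 2.29-fold (SE 0.057 on the log2 scale) and Cd274, the ligand PD-L1, by 1.02 (SE 0.0574). The adhesion molecule Icam1 fell by 0.68 (SE 0.0414, limma adjusted p = 6.81e-05), and its second probe fell by 0.73 (adjusted p = 0.0111). Of the 9 genes with a promoter window, Socs1 and Gbp2 held an ISRE core.

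**Figure D4:**
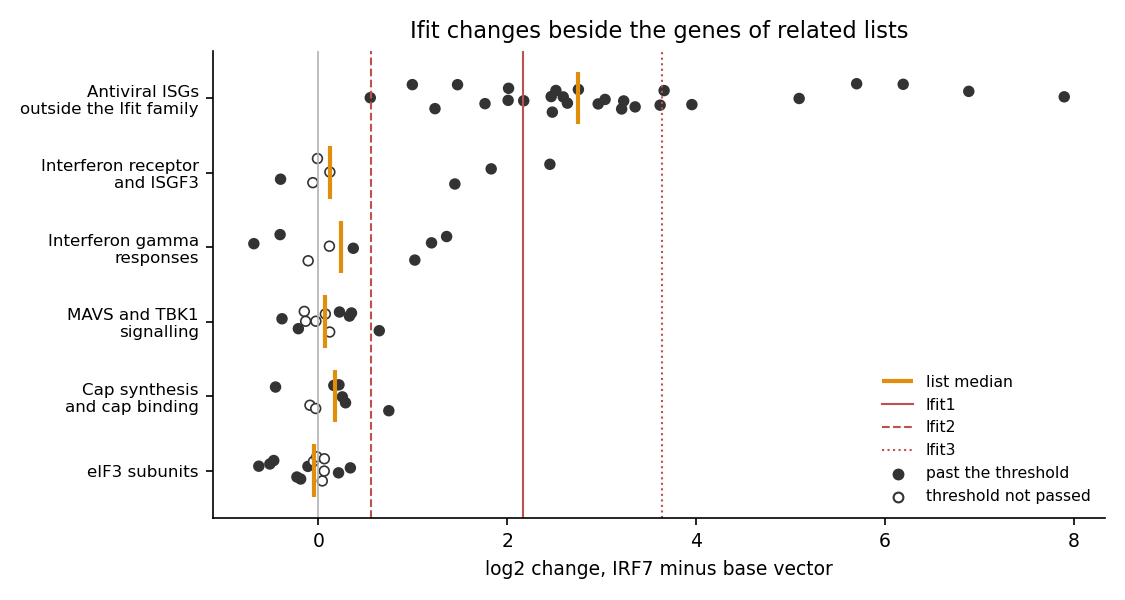
Log2 change (IRF7 minus base vector) of each tested gene in 6 lists, by its brightest probe, filled where the adjusted p is below 0.05; orange bars are list medians and red lines mark Ifit1 (solid), Ifit2 (dashed) and Ifit3 (dotted). The antiviral genes lie from 0.55 to 7.90 around all 3 lines, and the tested genes of the MAVS, cap and eIF3 lists lie between -0.63 and 0.75.

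The molecules that Ifit proteins are known to meet changed little. The cap list holds enzymes that build the mRNA cap and factors that bind it. In it 6 of 9 genes rose and 1 fell, with a median of 0.18 and none at least 2-fold higher. The shares over all tested probes were 30.4% higher and 28.2% lower, with 2.98% called and at least 2-fold higher. Cmtr1, which adds the first 2'-O methyl group to the cap, gave signals of 5553, 5027 and 5175 against 9206, 10186 and 11018, with no overlap. Its log2 change was 0.75 (SE 0.0347, limma adjusted p = 2.82e-05).

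Cmtr2, which methylates the next nucleotide, rose by 0.25 (SE 0.0453), a call that was lost with slide as a block (adjusted p = 0.0537) and with median centring (0.115). The capping enzyme Rngtt rose by 0.29, also lost with median centring (adjusted p = 0.0704), and a second probe gave -0.11 (adjusted p = 0.84). Ramac, the activating partner of the cap methyltransferase, fell by 0.45, and by 0.46 and 0.52 in its other probes, though the first fall did not pass without scaling (adjusted p = 0.0525). The number of genes that rose was 3 with slide as a block and 1 with median centring.

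Of 13 tested eIF3 subunits of 14, 2 rose and 6 fell, with a median log2 change of -0.05. Eif3k fell by 0.63 (SE 0.0352), Eif3f by 0.51 (SE 0.0347) and Eif3c by 0.47 (SE 0.049), and the 4 other Eif3c probes gave -0.19 to -0.67. Eif3b rose by 0.34 (SE 0.0445), where its second probe gave 0.05 (limma adjusted p = 0.262). Without scaling 3 subunits rose and 3 fell. Of 11 genes of Mavs and Tbk1 signalling, 4 rose and 2 fell, with a median of 0.07. Tbkbp1, an adaptor of Tbk1, rose by 0.64 (SE 0.0521), and by 0.31 in its second probe. Traf3 rose by 0.35 (SE 0.0315) and Tomm70a, a mitochondrial import receptor, by 0.33 (SE 0.048), while Mavs itself fell by 0.39 (SE 0.0329). The fall of Mavs did not pass without scaling (-0.19, adjusted p = 0.152). Of all tested probes 30.4% were called higher and 28.2% lower, so these counts are read against those shares.

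The genes beside the Ifit cluster were then described. The 5 Ifit probes span 75.5 kb, and within 1 Mb on either side 14 other probes for 9 genes were tested. Of these 7 were higher and 0 lower by limma's adjusted p, with a median log2 change of 0.35, where the 823 tested probes of chromosome 19 had 262 higher, 179 lower and a median of 0.05. At an unadjusted p below 0.05 the count lower was also 0. With normexp 1 neighbour was lower, and without scaling 11 were higher.

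Fas, a death receptor at -246 kb from the cluster, gave signals of 41.3, 30.8 and 31.7 against 121, 125 and 139, and was above background on 1 base-vector array. Its log2 change was 1.71 (SE 0.0753, limma adjusted p = 2.29e-05), and 0.75 with normexp. Lipa, the lysosomal acid lipase, lies at -80.5 kb and gave 2199, 1941 and 1979 against 3518, 3664 and 3747, a rise of 0.64 (SE 0.0335). The change of Lipa lay near that of Ifit2, and that of Fas rests on base-vector signals at the floor of the arrays.

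The kinesin Kif20b, 286 to 325 kb beyond the cluster, rose by 0.37, 0.43 and 0.29 in its 3 probes. The first of these was lost with replicate number as a block (adjusted p = 0.057). The deubiquitinase Stambpl1 gave 0.52 (adjusted p = 0.0006) and 0.13 (0.391) in its 2 probes, the latter past the threshold without scaling (0.33, adjusted p = 0.0426). Pank1, a kinase of coenzyme A synthesis, gave 0.24 (adjusted p = 0.0287) and -0.27 (0.133), and the first call was lost in 8 alternative settings, while the second value passed with normexp (-0.20, adjusted p = 0.0406). The nearest tested neighbour beyond Ifit1, Slc16a12 at 19.8 kb, gave 0.67 with a wide error (SE 0.408, adjusted p = 0.21). The muscle actin Acta2 gave 0.08 and 0.33, neither past the threshold (adjusted p = 0.176 and 0.139). Without scaling both passed (0.28 and 0.53). The second, dim probe also passed without base-vector replicate 1 (0.50, adjusted p = 0.00795) and was -0.03 with slide as a block. The unnamed NAP045112-1 gave 0.00 (adjusted p = 0.996). Ch25h, an antiviral oxysterol enzyme at -99.8 kb, was above background on no array.

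**Figure D5:**
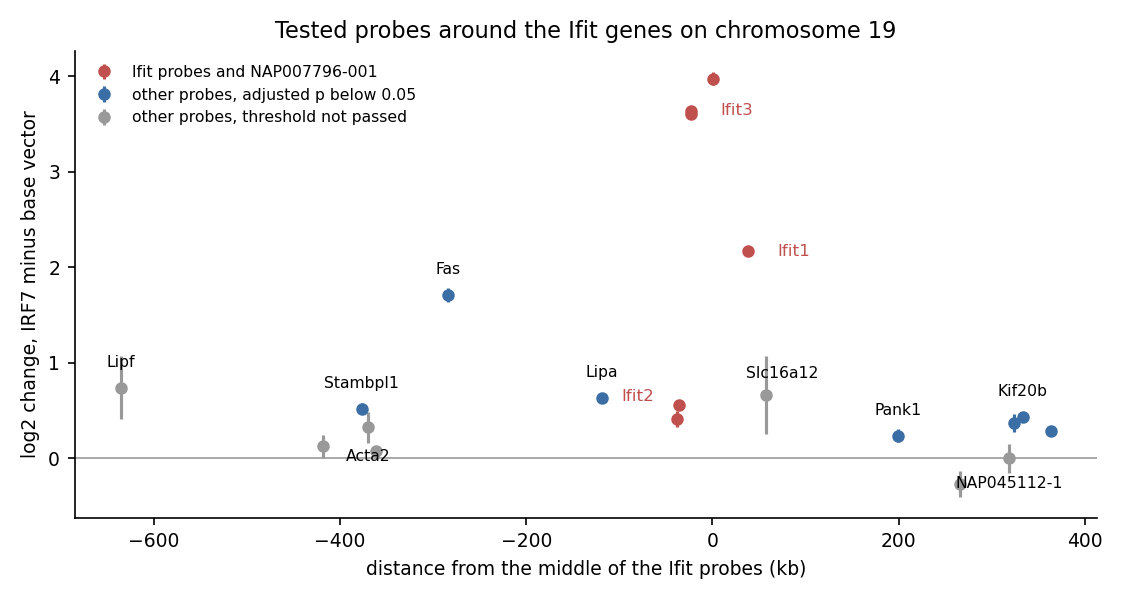
Log2 change (IRF7 minus base vector, with SE) of tested probes around the Ifit genes on chromosome 19, against distance from the middle of the Ifit probes in kb; Ifit probes and NAP007796-001 are red, other probes past an adjusted p of 0.05 blue and the rest grey. The Ifit3 and Ifit1 probes stand above the plotted values of the 14 neighbours, of which Fas, near the floor in base-vector cells, is highest at 1.71, and the Ifit2 probes lie among them.

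The genes whose profiles lay closest to each member over the 6 arrays were listed by Euclidean distance of log2 levels, each relative to its own base-vector mean, among 14146 genes. A small distance requires a similar change, so the close changes of the genes listed below follow from how they were picked. Nearest to Ifit1 was Eif2ak2 at a distance of 0.0801, which encodes the kinase PKR that senses double-stranded RNA. Its signals were 2547, 2193 and 2264 against 11514, 12022 and 12754, and its log2 change was 2.17. Next came the galectin-binding glycoprotein Lgals3bp (distance 0.11, log2 change 2.18), the interferon-inducible GTPase Irgm1 (0.136, 2.11) and the sorting nexin Snx22 (0.187, 2.20).

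Nearest to Ifit3 was NAP007796-001 at 0.0789, its neighbour on the chromosome. Zbp1, which senses Z-form nucleic acid, followed at 0.0967 with signals of 158, 139 and 144 against 2024, 2189 and 2206 and a log2 change of 3.66. Ifi27l2a (distance 0.183, log2 change 3.58) and the surface protein Ly6e (0.388, 3.87) came next.

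For Ifit2 the nearest genes were Rab21, a GTPase of endosomes (0.0352), Utp4 of ribosome assembly (0.0363), the pseudogene Hspd1-ps4 (0.0377), whose probe may also read its parent gene, and the glycogen-binding Stbd1 (0.0378). Their log2 changes were 0.54 to 0.56. Within a distance of 0.25, a limit chosen after the values were seen, lay 701 genes for Ifit2, 12 for Ifit1 and 3 for Ifit3. A change the size of that of Ifit2 was thus shared by many genes on these arrays, and those of Ifit1 and Ifit3 by few.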

How the data were processed

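Groups and replicate numbers came from the sample titles. Agilent Feature Extraction 9.5.3.1 read the scans, per the submitters' processing notes. The deposited files hold a linear intensity per spot that is background-subtracted but not scaled between arrays, with mm7 coordinates, per the file headers, and the authors' value table was identical to it. Control spots (1639 of 45018) and 111 to 121 outlier spots per array were left out, and spots of a probe were averaged. RefSeq (GRCm38.p6) gave current names, by accession for 22944 probes, by symbol or older symbol for 9772 and by gene ID for 294. The other 8164 kept the files' names. The log2 intensity minus each array's 75th percentile was tested with limma 3.58.1 (R 4.3.3; lmFit, eBayes, no block; 4 residual and 1.69 prior degrees of freedom) on 23518 probes, with Benjamini-Hochberg adjustment at 0.05, and with exact permutation tests (scipy 1.17.1) for differences between probes. Python 3.11.15, pandas 2.3.3 and matplotlib 3.10.9 made the tables and plots.

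A gene in a list was represented by its probe with the highest mean signal. The text names Irf7, every Ifit probe and relative, from each list the 4 tested genes of smallest p, the receptor and ISGF3 list, genes tested within 500 kb of the Ifit probes and the 4 genes nearest to each member in profile. Of the genes this rule chose, 1 is not reported here, though it counts in its list. The genes Oasl1, Ch25h, Mx1, Oas1g, Ifi44l, Ifngr1 and Ifngr2 fall outside that rule. So do genes named for their motif and cell type markers. All of these were chosen after their values were seen. The members and the lists were chosen with earlier results of these data known. Fits were tested on simulated data. The alternatives were normexp, quantile normalization, median centring, no scaling, other filters on dim probes, 1 probe a gene, a trended robust eBayes, blocks for slide (fixed, random) and for replicate number, slide 1 by itself and each array left out. Their effect is given in the closing section. The number of arrays limits the precision.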

Additional observations from a re-analysis of the deposited data

How the results depend on the processing

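All 5 Ifit probes kept their direction and passed the threshold under each of the 17 or 18 alternatives that tested them. The log2 change ranged from 2.12 to 2.37 for Ifit1, from 0.50 to 0.76 and from 0.30 to 0.62 for the Ifit2 probes A_51_P161021 and A_52_P542388, and from 3.44 to 3.84 and from 2.73 to 4.18 for the Ifit3 probes A_51_P359570 and A_52_P663686. The 393 alternative values in all include counts, which carry no sign. Among the Ifit probe changes and the differences between members, none had the opposite sign. Outside these values, Jak1, Ifnar2, Acta2 and NAP045112-1 changed sign in some settings, without passing the threshold there. Of the 393 values, 26 moved and are given here. A count moved by more than 1.5 times, and a difference between members by more than the spread between arrays. The fold of Ifit3 A_52_P663686 under normexp, 6.66 against 15.7, kept its call but not its size. The number of probes called ranged from 9397 to 14780, except for 21503 with no filter on dim probes, where 41174 were tested, and from 11889 to 13340 with 1 array left out. With normexp the difference in change was 1.31 for Ifit3 minus Ifit1 and 2.94 for Ifit3 minus Ifit2, and 1 neighbour was lower. With other probes these differences were 1.81 and 3.23 to 3.56 (3.42 with A_52_P663686 and A_51_P161021), and Ifit1 minus Ifit2 was 1.75. With quantile normalization 2 genes of the receptor and ISGF3 list and 2 of the cap list were lower. With median centring the counts were 1 higher in the cap list, 1 higher and 3 lower among eIF3 subunits, and 1 lower for MAVS signalling. Without scaling 0 genes were lower in the receptor, cap and MAVS lists, 1 was lower in the gamma list, 3 eIF3 subunits were lower and 11 neighbours were higher. With slide as a fixed block 3 cap genes and 1 eIF3 subunit were higher, and on slide 1 alone 1 eIF3 subunit was higher and 3 were lower. With 1 array left out 1 to 2 cap genes were lower. The cause of these moves was not tested, except that fewer or more probes enter where the filter differs.

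Replicate numbers are shared by both groups, but the labels do not say that they pair cultures, so the numbers were not taken as pairs. Deviations of same-numbered arrays correlated at 0.0349, 0.226 and 0.216, and those of arrays with different numbers at -0.211 to 0.0153. Each array correlated best with its own number, a hint from the data and not from the design. With replicate number as a block 14474 probes were called, the 5 Ifit probes passed, and 1 Kif20b probe did not.

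Signals near 28.0 to 34.0 are the floor of these arrays, which limits the fold of Ifit3 A_52_P663686 and of Fas and leaves Ifit1bl1 and Ifit1bl2 without a test.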
